A study of Mus musculus with 46 samples.

Results

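The major histocompatibility complex of the mouse, called H2, was examined in the nucleus accumbens of inbred strains that carry different versions of it. The genes were all those on chromosome 17 whose symbol, or database symbol, begins with H2- in the gene table the authors deposited, with 1 feature per gene. There were 44 such genes among 25859 named genes, and all 44 had values on every array. They lie between positions 33938821 and 37483552 of chromosome 17, a stretch of 3.54 Mb, in the coordinates of that table, whose genome build is not given in the sources used here. Class I and class I-like genes were sorted into 3 grouped as classical, 8 of the Q region, 7 of the T region and 13 of the M region. The others were 6 class II chain genes, 5 DM and DO chain genes and 2 neighbours that only share the prefix. H2-K2, which lies next to H2-K1, is grouped with the classical genes H2-K1 and H2-D1. Gm10499 is counted with the Q region by its database symbol, H2-Q5, although it lies in the T region.

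Class I molecules sit on the surface of most cells and show peptides from inside the cell to cytotoxic T cells, while the less variable class I-like molecules of the Q, T and M regions have narrower tasks. Class II molecules are pairs of an alpha and a beta chain, made chiefly by dendritic cells, macrophages and B cells, and show peptides from the endosome to helper T cells. In the brain, microglia and border cells are the usual carriers of class II, and some neurons are known to make class I. C57BL/6J mice carry the b haplotype of H2 and DBA/2J mice the d haplotype, which differ in allele sequences and, in the Q and T regions, in gene content.

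RNA came from 46 male mice, each with an array of its own (Affymetrix MTA 1.0, a transcript array with many probes per gene). DBA/2J gave 6 chronic nicotine, 6 chronic saline, 5 withdrawal nicotine and 6 withdrawal saline mice, and C57BL/6J gave 5, 6, 6 and 6 in that order of conditions. An osmotic minipump under the skin delivered nicotine at 24 mg per kg per day or saline alone for 14 days. Chronic mice kept the pump until death, whereas withdrawal mice had it removed 24 h before. The labels name no mutation or transgene, every mouse had received a pump, and nothing in the sources used here says that RNA was pooled. Numbers below are log2 signals, or differences of log2 signals, as deposited. A level is comparable between mice for the same gene, but not between genes, because probes differ.

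Against the mean of its group without itself, each array correlated at 0.996 or higher, and array medians over non-control features lay between 6.30 and 6.46. The array of C57BL/6J chronic saline replicate 3 stood farthest from its group, with a spread around the group mean of 0.216 (SD over genes), against 0.115 to 0.180 on the 45 others. Spiny neuron genes of the accumbens served as the check of the tissue. All 7 with array values passed the filter on low signals, and their mean level lay between 11.49 and 12.44 in DBA/2J and between 11.45 and 12.43 in C57BL/6J. No batch, cage number or scan time is given in the sources used here.

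A gene was tested when it exceeded the median of its array on at least 5 arrays, and 18 of the 44 H2- genes did so. The other 26 stayed below that on nearly all arrays, among them 12 of 13 M region genes, 5 of 6 class II chain genes and 4 of 5 DM and DO chain genes. H2-DMb2 was over the median on 1 of the DBA/2J and 2 of the C57BL/6J arrays, and H2-M3 on 3 and 0. Just above the limit, C920025E04Rik, whose database symbol is H2-T-ps, was over it on 4 DBA/2J and 2 C57BL/6J arrays. H2-M6-ps was over it on 18 DBA/2J and 8 C57BL/6J arrays. The 26 are described from a second fit of all 16304 genes without the filter. There, a signal may be near the background of the array, for which no detection call was used here.

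Between the strains, 8 of the 18 tested H2- genes differed (limma, adjusted p under 0.05), over the mean of the 4 conditions. Against this, 40.6% of all 9592 genes tested differed, so a share of 44.4% among the H2- genes was near the background. Of the 8, 5 were higher in DBA/2J (background 20.2%) and 3 lower (background 20.4%). H2-Ke6 had the highest difference, 0.33, and H2-T9 the lowest, -0.29, which are 1.26-fold and 0.818-fold. The median difference of the 18 was 0.05, beside 0.01 over all genes tested, and it was 0.03 with each array centred on its own median. Without C57BL/6J chronic saline replicate 3 the count was still 8, with H2-Ke6 at 0.31 and H2-T9 at -0.28. No H2- gene reached a difference of 0.5 in either direction, a size that 3.46% of all genes tested passed. In none of the 18 did all arrays of one strain lie beyond all arrays of the other, which 3.00% of all genes tested did. A difference in RNA amount and a difference in how well the alleles of a strain match the probes cannot be told apart in these arrays. In bulk tissue, fewer cells of a type and less RNA per cell cannot be told apart either.

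**Figure D1:**
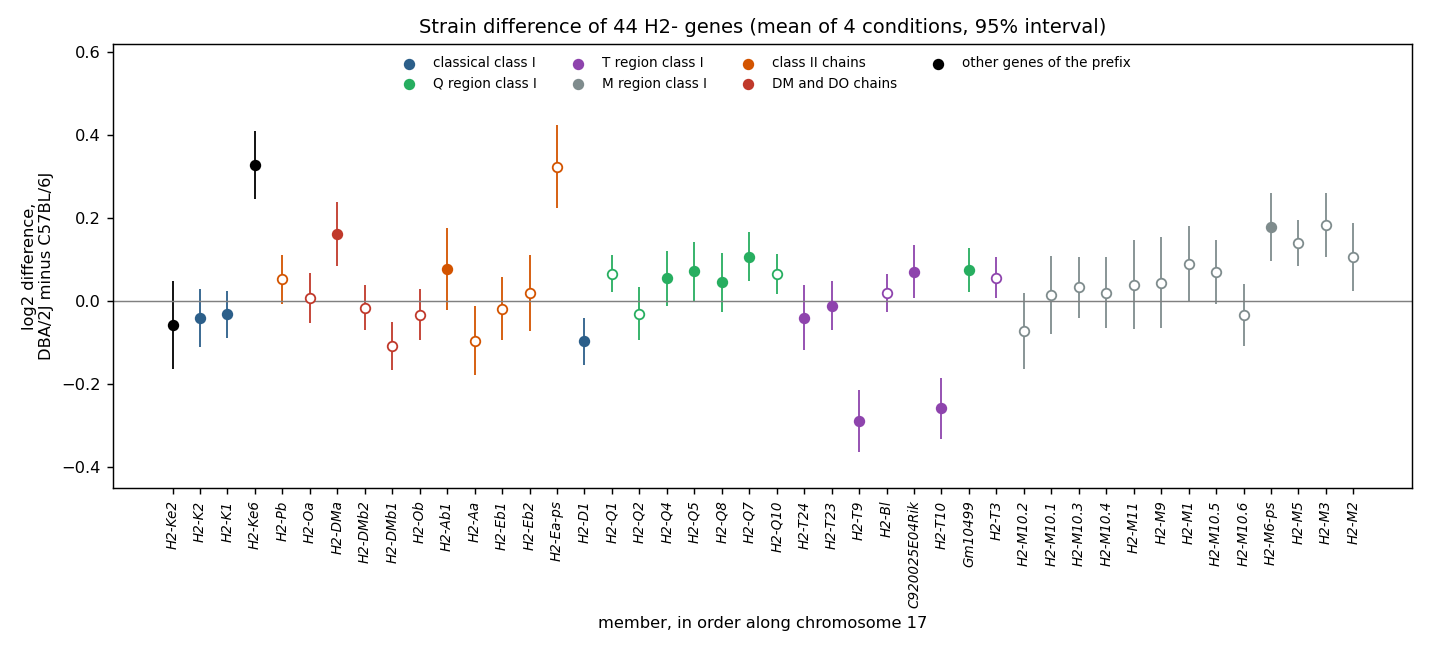
Log2 difference, DBA/2J minus C57BL/6J, of all 44 H2- genes in their order along chromosome 17 (limma over all genes, mean of 4 conditions, bars are 95% intervals). Filled points passed the filter on low signals and open points did not. Among filled points H2-Ke6 is highest at 0.33, and H2-T9 at -0.29 and H2-T10 at -0.26 are lowest. H2-Ea-ps is an open point at 0.32 whose signal was below the array median on all 46 arrays, and the remaining genes lie between -0.11 and 0.18.

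The classical class I genes H2-K1 and H2-D1 encode the heavy chains that present peptides to cytotoxic T cells. Their promoters are shown because the pair moved together between mice, as described further on. Of the 44 genes, 30 had 1 or more promoter windows in the RefSeq table (GRCm38.p6, 300 bases each, 250 before the transcript start to 50 after). This is the reference sequence, which is that of C57BL/6J, and the DBA/2J sequence was not used here. Capitals mark the palindrome GGGANTCCC, the heart of the kappaB site of class I promoters, and CTGATTGG, the CCAAT-containing Y box of class II promoters, which reads CCAATCAG on the other strand.
H2-K1, chr17:34000284-34000583, minus strand: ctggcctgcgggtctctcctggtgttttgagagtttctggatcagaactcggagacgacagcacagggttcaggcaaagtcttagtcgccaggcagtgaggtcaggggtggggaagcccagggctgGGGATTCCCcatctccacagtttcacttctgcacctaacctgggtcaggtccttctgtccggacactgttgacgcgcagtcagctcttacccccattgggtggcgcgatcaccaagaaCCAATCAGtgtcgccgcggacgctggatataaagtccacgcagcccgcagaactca
H2-D1, chr17:35262844-35263143, plus strand: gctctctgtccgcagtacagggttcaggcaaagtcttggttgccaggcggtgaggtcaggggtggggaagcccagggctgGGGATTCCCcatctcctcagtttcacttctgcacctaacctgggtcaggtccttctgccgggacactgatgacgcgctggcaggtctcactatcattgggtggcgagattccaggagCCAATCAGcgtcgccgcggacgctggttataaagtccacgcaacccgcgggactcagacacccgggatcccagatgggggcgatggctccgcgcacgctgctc

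The kappaB palindrome, searched on both strands, was found in 0.767% of 32851 mouse promoter windows and in those of 3 H2- genes, H2-K1, H2-D1 and H2-Q7. The longest unbroken run that both windows shared was 47 bases. CTGATTGG was found in 4.10% of all windows and in those of 16 H2- genes, class I and class II alike. GAAANNGAA, a spelling of an interferon response element, stood in 8.56% of all windows, and among the H2- genes in H2-T23. Both windows above hold the run agtttcacttct, which this spelling does not match. Other spellings were not searched, so this search does not show which promoters lack such an element. A match is a run of letters, not a site shown to work, and nothing about a factor follows from its presence or absence.

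H2-D1 lay at 7.05, 7.26 and 7.44 (lowest, median and highest of 23 mice) in DBA/2J, against 7.28, 7.38 and 7.52 in C57BL/6J. The ranges overlapped, and 12 DBA/2J arrays fell below the lowest of C57BL/6J. Its mean was 7.29 ± 0.10 in DBA/2J and 7.39 ± 0.07 in C57BL/6J (SD, n = 23 each), a difference of -0.10 (SE 0.03, limma adjusted p = 0.00448). H2-K1 spanned 7.12 to 7.44 in DBA/2J and 7.12 to 7.54 in C57BL/6J. Its difference was -0.03 (95% interval -0.09 to 0.02, limma adjusted p = 0.388), so both strains covered nearly the same range. H2-K2, a class I gene next to H2-K1, had 6.52 ± 0.13 in DBA/2J and 6.56 ± 0.10 in C57BL/6J (SD, n = 23 each), with a difference of -0.04 (95% interval -0.11 to 0.03, limma adjusted p = 0.355).

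The Q region holds the genes of the Qa-2 family, short class I-like molecules often anchored by a lipid tail. Of the 8 genes counted with it 5 were tested, and 2 of these, H2-Q7 and Gm10499, were higher in DBA/2J. H2-Q7, which encodes Qa-2, lay at 6.50, 6.67 and 6.90 (lowest, median, highest) in DBA/2J, against 6.38, 6.58 and 6.72 in C57BL/6J. The strains overlapped, with 7 DBA/2J arrays above every C57BL/6J array. The difference was 0.11 (SE 0.03, limma adjusted p = 0.00267). Gm10499, whose database symbol in the deposited table is H2-Q5 although it lies in the T region, had 6.56 ± 0.10 in DBA/2J and 6.48 ± 0.07 in C57BL/6J (SD, n = 23 each). Its difference of 0.08 (SE 0.03, limma adjusted p = 0.0171) was lost when each array was centred on its own median, which gave 0.05 (adjusted p = 0.0608). H2-Q4, H2-Q5 and H2-Q8 did not pass, with differences from 0.05 to 0.07. All 5 tested genes of this group, with Gm10499 counted by its symbol and not its position, had a positive value. Over all 8 genes 7 had one, the exception being H2-Q2 at -0.03. Near-identical class I genes may share probes, and how far that touches these values was not tested.

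The T region held the lowest differences. H2-T9 and H2-T10 encode class I-like molecules of the family recognised by gamma-delta T cells, for which H2-T10 is a known ligand. H2-T9 lay at 7.36, 7.53 and 7.72 (lowest, median, highest) in DBA/2J, against 7.57, 7.81 and 8.16 in C57BL/6J. H2-T10 lay at 6.76, 7.08 and 7.27 in DBA/2J, against 7.13, 7.35 and 7.64 in C57BL/6J. In each of these genes 15 of the 23 DBA/2J arrays fell below the lowest C57BL/6J array, while the strains overlapped in the rest. The difference of H2-T9 was -0.29 (SE 0.04, limma adjusted p = 1.48e-08). That of H2-T10 was -0.26 (SE 0.04, limma adjusted p = 1.16e-07). These 2 genes are close relatives, and whether they share probes was not tested.

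The other tested genes grouped with the T region did not pass. H2-T23, which encodes Qa-1, the ligand of the inhibitory receptor CD94/NKG2A, differed by -0.01 (95% interval -0.07 to 0.05, limma adjusted p = 0.796). H2-T24 differed by -0.04 (limma adjusted p = 0.44). C920025E04Rik differed by 0.07 (limma adjusted p = 0.0679). Below the filter, H2-T3, which encodes the thymus leukaemia antigen, had 0.06, and H2-Bl had 0.02, neither of which passed over all genes.

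In the M region, at the far end of the complex, only H2-M6-ps passed the filter. It is annotated as a pseudogene and had 6.26, 6.47 and 6.78 (lowest, median, highest) in DBA/2J, against 6.14, 6.32 and 6.66 in C57BL/6J. Most of both ranges was shared, with 4 DBA/2J arrays above every C57BL/6J array. The difference was 0.18 (SE 0.04, limma adjusted p = 3.85e-04). Next to it and below the filter lie H2-M5, H2-M3 and H2-M2, which were also higher in DBA/2J over all genes. H2-M3, which presents formylated bacterial peptides, had 6.21 ± 0.12 in DBA/2J and 6.03 ± 0.13 in C57BL/6J (SD, n = 23 each), a difference of 0.18 (limma adjusted p = 2.05e-04 over all genes). H2-M5 had a difference of 0.14 (adjusted p = 7.05e-05 over all genes) and H2-M2 one of 0.11 (adjusted p = 0.0456 over all genes). The 9 others, H2-M1, H2-M9, H2-M11 and the H2-M10 genes, of which many are known from vomeronasal neurons, had differences between -0.07 and 0.09 and none passed.

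**Figure D2:**
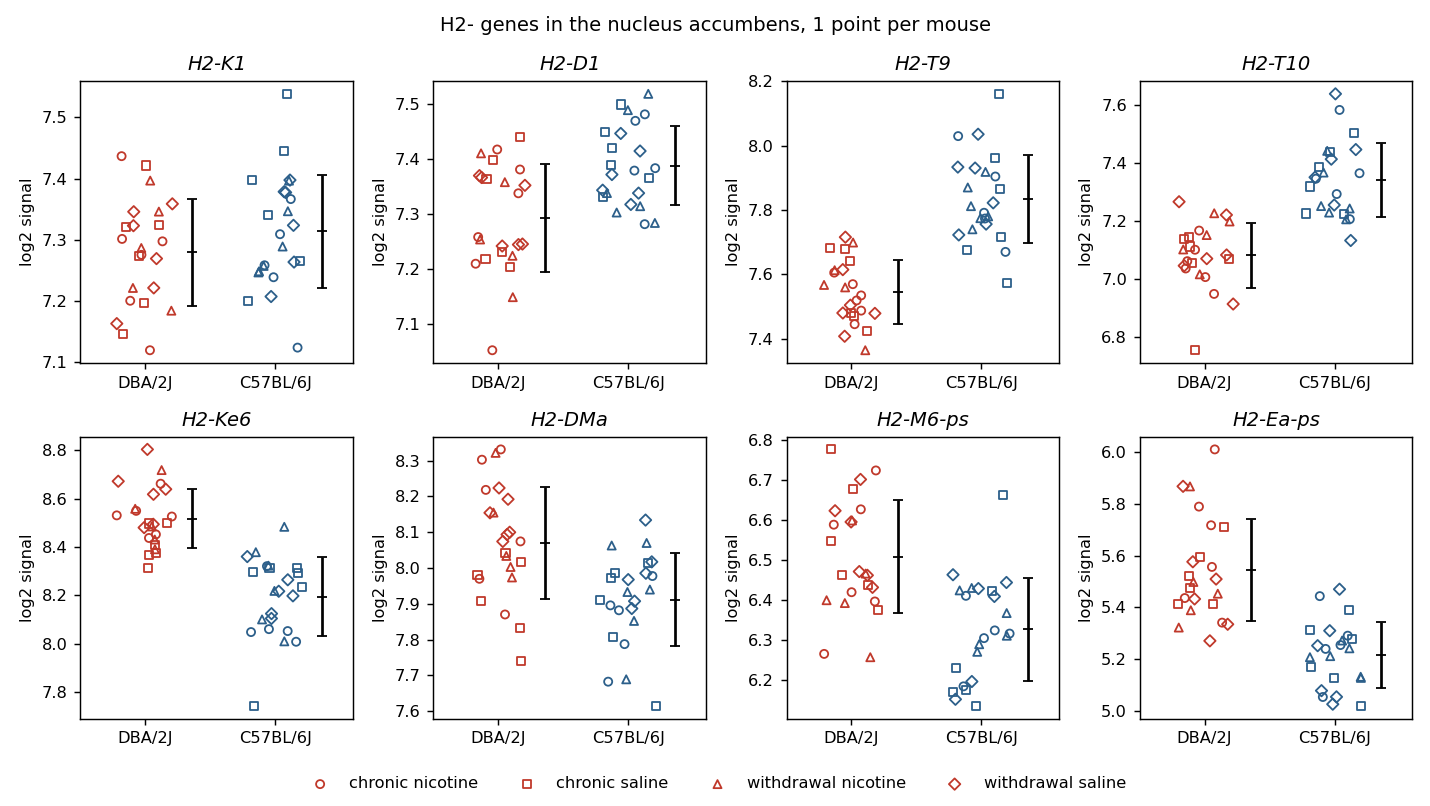
Log2 signal of 8 H2- genes in every mouse, with DBA/2J on the left of each panel and C57BL/6J on the right (23 mice each). Symbols give the condition, and the bars to the right are the mean ± SD. H2-T9 and H2-T10 sit lower in DBA/2J, H2-Ke6, H2-DMa, H2-M6-ps and H2-Ea-ps higher, and H2-K1 covers nearly the same range in both strains.

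Of the class II chains only H2-Ab1, the beta chain of the A molecule, passed the filter. It lay at 6.58, 6.82 and 7.10 (lowest, median, highest) in DBA/2J, against 6.39, 6.76 and 7.16 in C57BL/6J, so the ranges overlapped nearly fully. Its difference was 0.08 (95% interval -0.02 to 0.17, limma adjusted p = 0.218). H2-Ea-ps, the alpha chain of the E molecule, was below the array median on all 46 arrays. The b haplotype is known to carry a deletion in this gene that stops its transcription, and the gene is listed as a pseudogene in the reference strain. Its signal was 5.27, 5.50 and 6.01 in DBA/2J, against 5.02, 5.24 and 5.47 in C57BL/6J (lowest, median, highest). In 13 DBA/2J mice it was above every C57BL/6J mouse. The difference was 0.32 (SE 0.05, limma adjusted p = 9.60e-07 over all genes). H2-Aa, the partner of H2-Ab1, had a difference of -0.10 (adjusted p = 0.0807 over all genes). H2-Eb1, the beta chain that pairs with the E alpha chain, had -0.02, H2-Eb2 had 0.02 and H2-Pb 0.05, and none of the 3 passed.

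H2-DMa and H2-DMb1 form H2-DM, which removes the invariant chain peptide from class II molecules in the endosome. H2-DMa lay at 7.74, 8.07 and 8.33 (lowest, median, highest) in DBA/2J, against 7.61, 7.93 and 8.13 in C57BL/6J, and 8 DBA/2J arrays stood above every C57BL/6J array. Its difference was 0.16 (SE 0.04, limma adjusted p = 6.02e-04). H2-DMb1, below the filter, went the other way, with 5.18 ± 0.10 in DBA/2J and 5.29 ± 0.08 in C57BL/6J (SD, n = 23 each) and a difference of -0.11 (limma adjusted p = 0.00304 over all genes). H2-DMb2 had -0.02, and the chains of H2-O, the inhibitor of H2-DM, had 0.01 for H2-Oa and -0.03 for H2-Ob, none of which passed.

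The 2 neighbours that share only the prefix have no part in antigen presentation. H2-Ke6 encodes a hydroxysteroid dehydrogenase, Hsd17b8, and H2-Ke2 a prefoldin subunit, Pfdn6. H2-Ke6 lay at 8.31, 8.50 and 8.80 (lowest, median, highest) in DBA/2J, against 7.74, 8.22 and 8.48 in C57BL/6J, and 14 DBA/2J arrays stood above every C57BL/6J array. Its difference was 0.33 (SE 0.04, limma adjusted p = 4.63e-09). H2-Ke2 had 9.95 ± 0.16 in DBA/2J and 10.01 ± 0.20 in C57BL/6J (SD, n = 23 each), a difference of -0.06 (95% interval -0.16 to 0.05, limma adjusted p = 0.401).

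Over all 44 genes without the filter, 15 differed, beside a background of 27.3% of 16304 genes. Of these 11 were higher in DBA/2J (background 15.1%) and 4 lower (background 12.2%). The genes added by this fit were H2-Ea-ps, H2-M2, H2-M3, H2-M5, H2-Q1, H2-Q10 and H2-DMb1. H2-Ea-ps, H2-M3, H2-M5 and H2-DMb1 were picked for full values after their results were seen. H2-Q1 and H2-Q10, the latter known as a secreted class I molecule of the liver, each had a difference of 0.07. The strains' arrays were apart in none of the 44, which 1.85% of all genes were.

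Within single conditions the strain difference was tested 4 times. Among chronic nicotine mice 4 of 18 H2- genes differed (background 16.6%), and they were H2-T9, H2-T10, H2-Ke6 and H2-DMa. Among chronic saline mice 4 differed (background 19.2%), which were H2-T9, H2-T10, H2-M6-ps and Gm10499. Among withdrawal nicotine mice 2 differed (background 15.3%), H2-T9 and H2-Ke6. Among withdrawal saline mice 4 differed (background 18%), H2-T9, H2-T10, H2-Ke6 and H2-Q7. H2-T9 passed in each of the 4 conditions, but without DBA/2J withdrawal nicotine replicate 4 it did not pass in withdrawal nicotine mice, at -0.21 (limma adjusted p = 0.0735).

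In the order chronic nicotine, chronic saline, withdrawal nicotine and withdrawal saline, the H2-T9 difference was -0.31, -0.26, -0.26 and -0.33. H2-T10 had -0.30, -0.30, -0.15 and -0.27, and H2-Ke6 had 0.43, 0.21, 0.26 and 0.41. H2-Ea-ps had 0.39, 0.30, 0.31 and 0.30, with adjusted p-values between 0.00838 and 0.0494 over all genes (limma). H2-DMa had 0.28, 0.04, 0.17 and 0.16, so its value among chronic saline mice was the lowest of the 4. The count of chronic saline mice was 2 without DBA/2J replicate 3 or without DBA/2J replicate 6, where H2-M6-ps and Gm10499 no longer passed. Gm10499, with an adjusted p of 0.0493 (limma) in these mice, lost its call in 34 of the 46 cases of leaving out 1 mouse. The count of withdrawal nicotine mice was 1 without C57BL/6J replicate 1 or 6 or DBA/2J replicate 5, where H2-Ke6 was lost, and without DBA/2J replicate 4, where H2-T9 was lost. H2-Q7 in withdrawal saline mice was lost in 9 of the 46 cases. Without C57BL/6J chronic saline replicate 3, the value of H2-Ke6 in chronic saline mice was 0.12 (limma adjusted p = 0.209). Whether the strain difference itself changed with treatment is given by the interaction tests below.

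Some genes separated the strains fully inside a condition. Among chronic nicotine mice H2-T9, H2-T10 and H2-Ke6 did (3 of 18, background 9.91%), and among chronic saline mice H2-T10 and H2-Ke6 (2 of 18, background 7.62%). Among withdrawal nicotine mice it was H2-T9 (1 of 18, background 9.53%), and among withdrawal saline mice H2-T9 and H2-Ke6 (2 of 18, background 10%). H2-T9 in chronic nicotine mice ranged from 7.45 to 7.61 in DBA/2J (n = 6), against 7.67 to 8.03 in C57BL/6J (n = 5). H2-Ke6 in withdrawal saline mice ranged from 8.48 to 8.80 in DBA/2J, against 8.10 to 8.36 in C57BL/6J (n = 6 each).

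**Figure D3:**
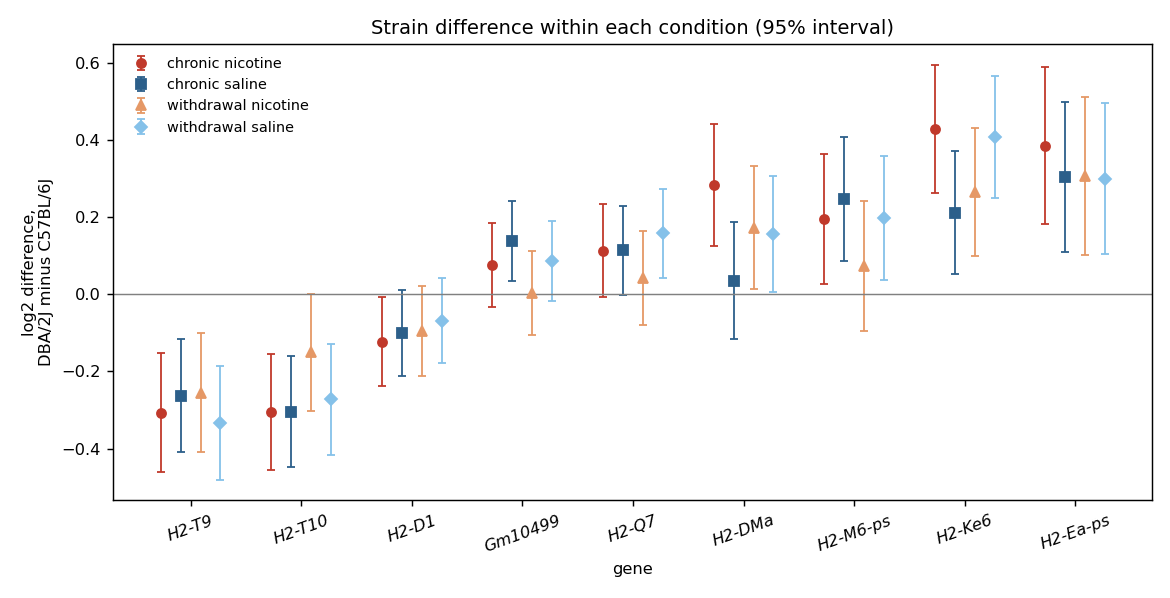
Log2 difference, DBA/2J minus C57BL/6J, of 9 H2- genes within each of 4 conditions (limma over all genes, bars are 95% intervals). H2-T9 is below 0 and H2-Ke6 and H2-Ea-ps are above 0 in all 4, and the H2-DMa values run from 0.04 to 0.28.

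Nicotine was compared with saline in each strain and phase, to ask whether long delivery or its end moved these genes. No H2- gene and no other gene passed in any of the 4 nicotine comparisons (limma, background 0%). At an unadjusted p under 0.05 there were 2 of 18 H2- genes and 769 of all genes in DBA/2J chronic mice. The H2- count was 0 in the other 3 comparisons, where 523 (DBA/2J withdrawal), 449 (C57BL/6J chronic) and 286 (C57BL/6J withdrawal) of all genes had such a p. The median difference of the 18 genes was -0.04, -0.04, 0.01 and 0.00077 in DBA/2J chronic, DBA/2J withdrawal, C57BL/6J chronic and C57BL/6J withdrawal mice. Over all genes tested it was 0.02, 0.02, -0.03 and -0.0050.

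The genes with the smallest p are given as values that did not pass. In DBA/2J chronic mice H2-DMa lay at 7.87, 8.15 and 8.33 (lowest, median, highest) with nicotine, against 7.74, 7.94 and 8.04 with saline, overlapping groups that differed by 0.21 (SE 0.07, limma adjusted p = 0.606). H2-Q8 lay at 6.46, 6.57 and 6.66 with nicotine, against 6.54, 6.75 and 6.83 with saline, a difference of -0.15 (SE 0.07, limma adjusted p = 0.606). In C57BL/6J chronic mice H2-K1 had -0.11 and H2-T23 had -0.10 (limma adjusted p = 0.992 for both). In DBA/2J withdrawal mice H2-K2 had -0.14 and H2-T23 had -0.09 (limma adjusted p = 0.858 for both). In C57BL/6J withdrawal mice H2-Ke2 had -0.15 and H2-Q4 had 0.08 (limma adjusted p = 1.00 for both).

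Pump removal was read among saline mice, as withdrawal saline minus chronic saline. No gene passed in DBA/2J or in C57BL/6J (limma, background 0% in both). At an unadjusted p under 0.05 there were 3 of 18 H2- genes and 389 of all genes in DBA/2J, and 0 of 18 and 358 in C57BL/6J. In DBA/2J, H2-DMa had 0.22, H2-Ke6 had 0.21 and H2-Q8 had -0.15 (limma adjusted p = 1.00 for each). H2-DMa was 8.14 ± 0.06 in DBA/2J withdrawal saline mice and 7.92 ± 0.12 in DBA/2J chronic saline mice (SD, n = 6 each). The DBA/2J chronic saline mice are the comparison group both here and for chronic nicotine, and H2-DMa was lowest and H2-Q8 highest in them among the DBA/2J groups. In C57BL/6J the smallest p belonged to H2-T23 at -0.08 and H2-DMa at 0.10 (limma adjusted p = 0.998 for both).

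The strain difference of each effect was tested as an interaction, DBA/2J effect minus C57BL/6J effect. No gene passed for the chronic nicotine effect, the withdrawal nicotine effect or pump removal (limma, background 0% in each). At an unadjusted p under 0.05 there were 2, 0 and 1 of 18 H2- genes, and 954, 677 and 279 of all genes. For chronic nicotine H2-DMa had 0.25 (95% interval 0.03 to 0.47, limma adjusted p = 0.476) and H2-Q8 had -0.20 (limma adjusted p = 0.502). For withdrawal nicotine H2-K2 had -0.18 and H2-T23 had -0.14 (limma adjusted p = 0.706 and 0.716). For pump removal H2-Q8 had -0.20 and H2-T23 had 0.16 (limma adjusted p = 1.00 for both).

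**Figure D4:**
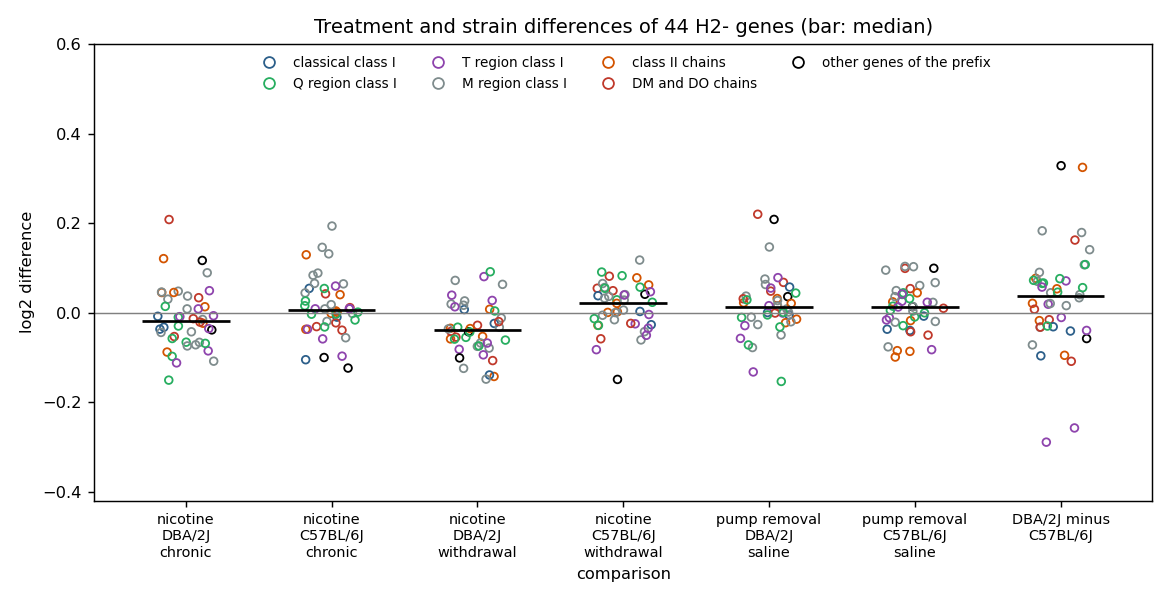
Log2 difference of the 44 H2- genes in 4 nicotine comparisons (nicotine minus saline), 2 pump removal comparisons (withdrawal saline minus chronic saline) and the strain comparison, with 1 point per gene and a bar at the median. Nicotine and pump removal values stay between -0.15 and 0.22, and the strain values between -0.29 and 0.33.

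The authors' S-scores, signed and standardised differences of a nicotine mouse from the saline mice of its strain and phase, were read beside the log2 values. Averaged over the mice of a group, they were positive for 9 of 44 H2- genes in DBA/2J chronic mice, where 44.6% of all 26272 features were positive. In DBA/2J withdrawal mice 18 of 44 were positive (52% of all features). In C57BL/6J 29 were positive both in chronic mice (50.7% of all features) and in withdrawal mice (49% of all features). The nicotine differences in log2 signal were positive for 16, 13, 25 and 27 of the 44 in DBA/2J chronic, DBA/2J withdrawal, C57BL/6J chronic and C57BL/6J withdrawal mice, beside 49.3%, 50.7%, 46.8% and 48.6% of all 16304 genes. Genes of 1 array share its signal and some may share probes, so these counts are a description and nothing particular to the H2- genes is read from them. H2-DMa had a mean S-score of 1.16 ± 0.89 in DBA/2J chronic mice (SD, n = 6), where every mouse was above 0. H2-K1 had -1.25 ± 1.36 in C57BL/6J chronic mice (SD, n = 5), the one group mean of an H2- gene outside the central 95% of all 26272 features. Scores of a group share their saline mice, so no test was made of them.

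The genes that supply peptides to class I and class II were read from lists, in the strain comparison. There, 40.6% of all 9592 genes tested differed, with 20.2% higher and 20.4% lower in DBA/2J. This background holds for the counts of every list below, and nothing particular to a list is read from them. Of the class I pathway 12 of 15 listed genes had array values and 7 were tested, of which 2 were higher in DBA/2J and 0 lower. These were Psmb10, a subunit of the immunoproteasome, at 0.22 (limma adjusted p = 6.23e-05), and Erap1, which trims peptides in the endoplasmic reticulum, at 0.09 (limma adjusted p = 0.0314). The median of the 7 was 0.05. Of the class II pathway 6 of 12 had array values and 5 were tested, of which 2 were higher, 1 lower, with a median of 0.05. Ctsl, a protease of the endosome, had 0.23 (limma adjusted p = 7.01e-04) and Ifi30, a thiol reductase that opens antigens, had 0.31 (limma adjusted p = 9.04e-07). Rfxank, a subunit of the factor that binds the X box of class II promoters, had 7.87 ± 0.10 in DBA/2J and 8.30 ± 0.08 in C57BL/6J (SD, n = 23 each), a difference of -0.43 (limma adjusted p = 2.54e-17).

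Genes induced by interferon, which also raises H2 genes, went both ways. Of 22 listed 15 had array values and 9 were tested. Of these 9, 2 were higher (background 20.2%) and 2 lower (background 20.4%) in DBA/2J, with a median of -0.03. Xaf1 had 0.42 (limma adjusted p = 2.01e-11) and Ifit3 had 0.16 (limma adjusted p = 0.0131). Igtp, an interferon-induced GTPase, had -0.35 (limma adjusted p = 7.41e-09) and Bst2, which tethers viruses, had -0.12 (limma adjusted p = 0.0123).

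Markers of cells that could carry these molecules were set beside the strain differences. Of 14 microglia markers 7 had array values and all 7 were tested. Of these 7, 1 was higher (background 20.2%) and 3 lower (background 20.4%) in DBA/2J. Their mean level ranged from 8.74 to 9.04 in DBA/2J and from 8.77 to 9.07 in C57BL/6J. Aif1 had a difference of 0.13, Cd68 one of -0.19 and Trem2 one of -0.10. Aif1, the only microglia marker that was higher, lies within the stretch that the H2- genes span. It is therefore also counted among the other genes of that stretch below. Of 11 markers of border macrophages and dendritic cells 6 had array values and 0 passed the filter, with a mean level of 5.46 to 5.76 in DBA/2J and 5.34 to 5.69 in C57BL/6J. The 12 lymphocyte markers gave 6 with array values and 0 above the filter, with 5.14 to 5.48 in DBA/2J and 5.16 to 5.43 in C57BL/6J. Of 9 endothelium markers 5 were tested and 1, Cldn5, was lower in DBA/2J (background 20.4%). Of the 7 spiny neuron genes 3 were lower (background 20.4%), with Drd2 at -0.63, Adora2a at -0.31 and Ptpn5 at -0.19. The part of these markers in the H2- differences was not tested.

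The 3.54 Mb that the H2- genes span also holds 192 other genes, and 88 of them were tested. Of these 19 were higher and 19 lower in DBA/2J, a share of 43.2%, beside 44.4% of the H2- genes and 45.5% of 587 genes elsewhere on chromosome 17. The highest were Gm18733 at 0.34 and Vps52 at 0.22, and the lowest were BC051142 at -1.09 and Mog, a myelin glycoprotein, at -0.32 (limma adjusted p of 1.41e-04 or less in each). BC051142 averaged 6.52 in DBA/2J and 7.61 in C57BL/6J, and no H2- gene came near that difference.

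Beyond group means, some H2- genes moved together from mouse to mouse. Deviations from the group mean were correlated over the 46 mice for 12 pairs, chosen with results known, with p-values from 100000 permutations adjusted over the 12. The permutations ran over all 46 mice, although the means of the 8 groups had been removed. They take no account of the removed means, so these p-values are somewhat too small. H2-K1 and H2-D1 had r = 0.68 (rho = 0.69, permutation p = 1e-05, the smallest these permutations can give, adjusted p = 4e-05 for both). Within strains r was 0.82 in DBA/2J and 0.50 in C57BL/6J, and without the 2 mice farthest from the median of H2-K1 it was 0.66. Among 16303 other genes H2-D1 stood second in likeness to H2-K1, behind Gm12185. H2-T9 and H2-T10 had r = 0.65 (rho = 0.63, permutation p = 1e-05, adjusted p = 4e-05 for both), with 0.44 in DBA/2J and 0.78 in C57BL/6J, and 0.63 without the 2 farthest mice, and H2-T10 was at rank 11 in likeness to H2-T9. H2-K1 and H2-D1 resemble each other in promoter sequence, as the windows above show, and whether this bears on their correlation was not tested. Those windows lie mostly before the transcript and do not speak to shared probes, which were not tested here either.

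Pairs of class II chains were read in the same way. H2-Aa and H2-Eb1, over the array median on 0 of 46 arrays, and H2-DMb1, also below the filter, may be near the background of the array. H2-Aa and H2-Ab1 had r = 0.67 (rho = 0.54, permutation p = 1e-05 and 1.3e-04, adjusted p = 4e-05 and 3.9e-04), with 0.55 in DBA/2J and 0.76 in C57BL/6J, and 0.61 without the 2 farthest mice. H2-Ab1 and H2-Eb1 had r = 0.65 (rho = 0.66, permutation p = 2e-05 and 1e-05, adjusted p = 6e-05 and 4e-05), with 0.60 in DBA/2J and 0.70 in C57BL/6J, and 0.65 without the 2 farthest mice. Among 16303 genes H2-Aa and H2-Eb1 were the second and the third most like H2-Ab1, behind Prdm6. In likeness to H2-Aa, H2-Ab1 stood at rank 5. H2-Ab1 and Cd74, the invariant chain that guides class II, had r = 0.45 (rho = 0.37, permutation p = 0.00198 and 0.0120, adjusted p = 0.00396 and 0.0180), with 0.18 in DBA/2J and 0.65 in C57BL/6J, and 0.34 without the 2 farthest mice. Cd74 stood at rank 382 of 16303 genes in likeness to H2-Ab1. H2-DMa and H2-DMb1 gave r = 0.06 (rho = 0.01, permutation p = 0.704 and 0.926, adjusted p = 0.704 and 0.926).

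**Figure D5:**
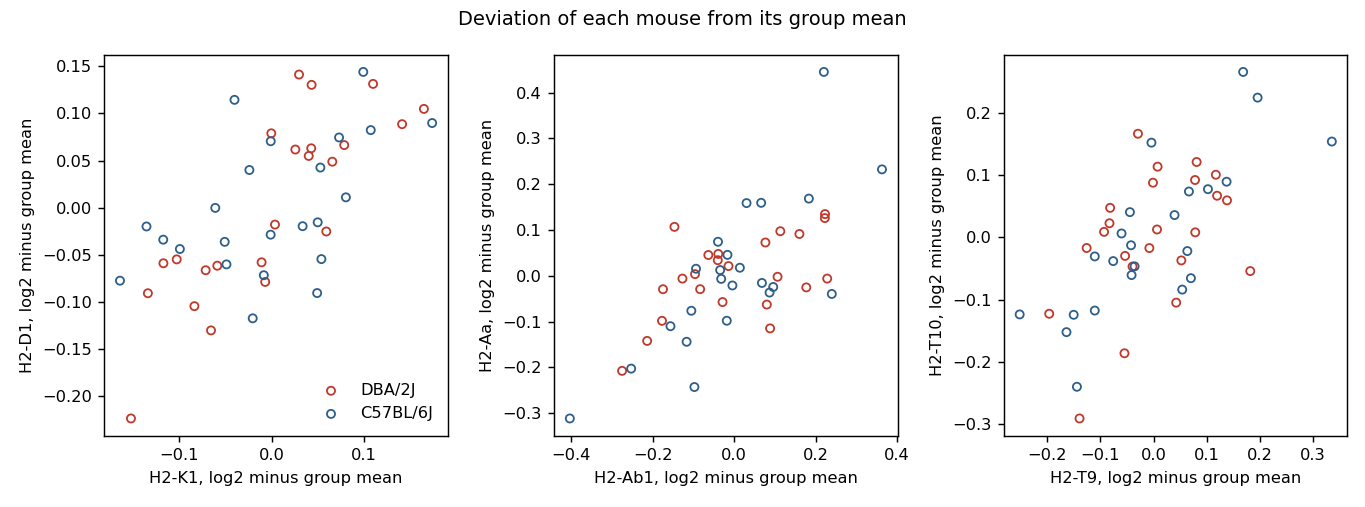
Deviation of each mouse from its group mean, in log2 units, for H2-D1 against H2-K1, H2-Aa against H2-Ab1 and H2-T10 against H2-T9, with 1 point per mouse (23 DBA/2J and 23 C57BL/6J). The points rise together in each panel, with r = 0.68, 0.67 and 0.65 over 46 mice.

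The promoters of H2-Aa and H2-Eb1 are shown for the boxes that class II genes are known to share. Capitals mark CTGATTGG, the Y box, and AGNAACNGA, the core of the X1 box in letters chosen after the windows were read. Both windows are GRCm38.p6 and 300 bases long.
H2-Aa, chr17:34287774-34288073, minus strand: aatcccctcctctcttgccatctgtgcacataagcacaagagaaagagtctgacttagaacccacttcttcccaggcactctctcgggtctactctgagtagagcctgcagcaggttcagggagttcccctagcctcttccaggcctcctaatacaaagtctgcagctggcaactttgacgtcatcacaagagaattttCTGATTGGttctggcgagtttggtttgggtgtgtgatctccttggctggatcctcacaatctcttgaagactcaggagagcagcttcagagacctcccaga
H2-Eb1, chr17:34305617-34305916, plus strand: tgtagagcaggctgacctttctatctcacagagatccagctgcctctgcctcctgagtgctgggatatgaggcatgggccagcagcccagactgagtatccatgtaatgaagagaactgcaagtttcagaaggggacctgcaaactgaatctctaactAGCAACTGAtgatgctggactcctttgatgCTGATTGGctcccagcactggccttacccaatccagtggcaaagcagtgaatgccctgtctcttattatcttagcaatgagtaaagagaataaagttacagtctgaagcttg

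The X1 letters stood in 5.35% of all mouse promoter windows and in those of 4 H2- genes, H2-Eb1, H2-Eb2, H2-DMb1 and H2-Oa. The longest run of bases that the H2-Aa and H2-Eb1 windows shared was 8, against 47 between H2-K1 and H2-D1. Between H2-K1 and H2-Aa, a class I and a class II gene, it was also 8. H2-Ab1, H2-T9, H2-T10 and H2-Ea-ps had no entry in the table.

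The remaining pairs set class I genes beside each other and beside genes of their pathway. H2-K1 and H2-T23 had r = 0.43 (rho = 0.38, permutation p = 0.00297 and 0.00897, adjusted p = 0.00509 and 0.0154) and 0.38 without the 2 farthest mice. H2-Q5 and H2-Q7 had r = 0.38 (rho = 0.39, permutation p = 0.00906 and 0.00827, adjusted p = 0.0136 and 0.0154) and 0.35 without the 2 farthest. H2-K1 and Tap1, a chain of the peptide transporter, had r = 0.47 (rho = 0.43, permutation p = 8.3e-04 and 0.00274, adjusted p = 0.00199 and 0.00658) and 0.43 without the 2 farthest. H2-K1 and the interferon-induced GTPase gene Irgm1 had r = 0.33 (rho = 0.33, permutation p = 0.0239 and 0.0270, adjusted p = 0.0319 and 0.0360) and 0.26 without the 2 farthest. Among 16303 genes Tap1 was at rank 80, H2-T23 at rank 157 and Irgm1 at rank 519 in likeness to H2-K1, and H2-Q7 at rank 347 in likeness to H2-Q5. The r of Irgm1 lay below 0.351, the upper bound of the central 95% of r over all genes with H2-K1. Its permutation p-values are somewhat too small, as said above, so that pair is not read as passing. H2-D1 with the immunoproteasome gene Psmb8 gave r = 0.19 (rho = 0.21, permutation p = 0.201 and 0.158, adjusted p = 0.224 and 0.172), and H2-K1 with Ifit3 gave r = 0.19 (rho = 0.26, permutation p = 0.206 and 0.0830, adjusted p = 0.224 and 0.0996). Both values of a pair come from the same array and dissection in each mouse.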

How the data were processed

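RNA of the nucleus accumbens from 46 mice was measured on 46 Affymetrix MTA 1.0 arrays. The authors deposited log2 values, 1 per array and transcript cluster, for 48088 features, 6732 of them controls. They also deposited scores for 26272 features with gene names and, per the file headers, S-scores of 22 nicotine mice. How probes were summarised, scaled and filtered, and on which genome build, is not given in the sources used here. The 26 symbols that a spreadsheet had turned into dates were left out. For each gene symbol the feature with the highest mean was used, and each H2- gene had 1 feature.

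Genes above the array median (50th percentile, controls left out) on at least 5 arrays were fitted with limma 3.58.1 in R 4.3.3, with a coefficient for each group (residual degrees of freedom 38, prior 4.14). There were 14 contrasts, two-sided, adjusted by Benjamini-Hochberg over all 9592 genes of each contrast, with a threshold of 0.05. The same fit was run over all 16304 genes. The fit was tested on simulated data. Tables were read with data.table (version 1.17.8), and permutations, promoter searches and plots used Python 3.11.15 with pandas 2.3.3, numpy 2.4.6, SciPy 1.17.1 and matplotlib 3.10.9.

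The genes, the lists and the pairs were chosen with earlier results of these data known. H2- genes at adjusted p under 0.05 between strains got full values, with those that are 1 of 3 or fewer of their role, and the 2 with the smallest p were named where none passed. List genes at adjusted p under 0.05 were named, at most 4 per list, and the 2 largest changes in each direction among the other genes of the interval. Alternatives were other filters, centring and scaling, trended and weighted fits, fewer groups per fit, every feature as its own row, S-scores, a block for the mouse number, and leaving out each mouse. Mice of different groups with the same number did not deviate together (median r -0.0023 over 155 pairs, and -0.0024 over 770 pairs of other numbers), so numbers were not taken as pairs. The value of 1 listed marker gene is not reported here. The number of arrays limits the precision. Mice were housed 4 per cage, but nothing in the sources used here says how they were assigned to cages. The p-values measure the spread between single mice and take each mouse as independent. An effect of a shared cage could not be examined.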

Additional observations from a re-analysis of the deposited data

Results flagged for a closer look

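In 144 groups checked (8 groups for each of 18 H2- genes given with values above, which are not the 18 that passed the filter and include H2-Aa, H2-Ea-ps, H2-Eb1, H2-M3, H2-M5 and H2-DMb1 from below it), 4 held a mouse that stood apart from the others by Dixon's criterion at the 95% level, which chance reaches in about 1 of 20 groups. H2-T10 was 6.76 in DBA/2J chronic saline replicate 5, while the other mice of that group lay between 7.05 and 7.15. H2-Ke6 was 8.32 in C57BL/6J chronic nicotine replicate 2, with the others between 8.01 and 8.06. It was 7.74 in C57BL/6J chronic saline replicate 3, with the others between 8.24 and 8.31, and this is the array that stood farthest from its group over all genes. H2-Aa was 5.90 in C57BL/6J withdrawal nicotine replicate 1, with the others between 5.25 and 5.47. The number of flags was below what chance gives.

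With each mouse left out in turn, the strain difference of H2-T10 stayed between -0.27 and -0.24 and that of H2-Ke6 between 0.31 and 0.34.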

How the results depend on the processing

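The count of 8 H2- genes that differ between strains was 15 with no filter on low values, where 44 genes are tested. It was 1 above the 75th percentile, where only 2 are tested, H2-Ke6 and H2-Ke2. These are the neighbours that share only the prefix, so this setting tests no antigen presentation gene. That stricter filter also left 1 in each of the 4 single conditions. With only the groups compared in the fit, the count was 1 in chronic saline and 1 in withdrawal nicotine mice, from fewer samples. With each mouse left out, the counts ran from 8 to 9 over the mean of conditions, 4 to 5 in chronic nicotine, 2 to 5 in chronic saline, 1 to 2 in withdrawal nicotine and 3 to 5 in withdrawal saline mice, and stayed at 0 in all nicotine, pump removal and interaction comparisons. With mouse number as a replicate block the count over the mean of conditions was 8, and in withdrawal saline mice 3. The block changed no other count, and the numbers do not pair the mice. Gm10499 was 0.05 (adjusted p = 0.0608) with arrays centred on their median, and the cause was not tested. The median difference of the tested H2- genes, 0.05, was 0.03 with arrays centred on their median, 0.03 after quantile normalization and 0.04 with no filter. Above the 75th percentile it was 0.135, from H2-Ke6 and H2-Ke2 alone. By S-score 9 H2- genes were positive in DBA/2J chronic mice, against 16 by log2 value. No strain difference of the 15 genes followed changed its sign under any alternative run. These are not the 15 called without the filter. They include H2-K1, H2-K2 and H2-Ke2, while H2-M2, H2-Q1 and H2-Q10 were not followed. An alternative for features with several symbols was not run, since no feature holds several. For the 26 H2- genes below the filter, signal over background limits what the arrays can show.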

Other observations

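Some genes outside the complex tracked the class I genes from mouse to mouse. For H2-D1 the most similar of 16303 genes were Gfap, the intermediate filament of astrocytes, with r = 0.70, and Lamb2, a basement membrane laminin, with r = 0.69, ahead of H2-K1 at 0.68. For H2-K1 they were Gm12185 at 0.69, H2-D1 at 0.68 and Apcdd1, a Wnt inhibitor, at 0.67. H2-Aa was most like Mpzl2 at 0.73, Trpm6 at 0.69 and Col4a6 at 0.69. H2-T9 was most like Rlbp1 at 0.71, Serpinb1a at 0.71 and Cadps at 0.69. For H2-DMa they were Chid1 at 0.69, Dcaf11 at 0.67 and Map2k1 at 0.67. These are the highest of many correlations over the same 46 arrays, chosen for being highest, and are given as values with no test.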
